A study of Mus musculus with 4 samples.

Results

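The 39 genes described here are transcription factors, HOX genes and surface genes of blood stem cells and multipotent progenitors, taken from a list fixed by gene name. A gene was measured when the platform annotation gave its probe set exactly 1 gene symbol, and 34 of the 39 were, out of 30142 genes named in this way. Each of the 34 had 1 such probe set. The probe sets of Hoxa7, Hoxa9 and Hoxb4 carry a further symbol (Mira, Mir196b and Mir10a), so they were assigned to no gene, and Ly6a and Runx2 are not analysed here. The signals came from 4 expression arrays, each of a separate sample of lineage-negative, c-Kit-positive (LK) progenitors from NOD mice, a strain that develops autoimmune diabetes. In the combination group, 2 samples were cultured for 4 h with 10 µM dimethyl prostaglandin E2 (dmPGE2, a long-lived analog of a lipid mediator that signals through cAMP) and 10 µM dexamethasone (a synthetic glucocorticoid). The vehicle group consisted of 2 samples cultured for the same 4 h with DMSO. No array carried either drug alone, and the labels used here do not give the age, sex or number of the mice or the tissue of origin. All levels are log2 RMA signals, and every difference is combination minus vehicle.

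Blood stem cells keep their identity through a small network of transcription factors. TAL1 and LYL1 are basic helix-loop-helix proteins that bind E-box DNA with the bridging proteins LMO2 and LDB1, and they share many enhancers with RUNX1 and the ETS factors ERG and FLI1. HOXA proteins with their partner MEIS1, and zinc finger proteins such as MECOM and PRDM16, sustain self-renewal, while surface proteins such as CD34, CD48, SLAMF1 (CD150) and the endothelial protein C receptor (Procr) are used to sort the cells. LK cells hold few true stem cells and many committed myeloid and erythroid progenitors.

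The labelled identity was checked first. Kit, the receptor used for the sort, was at 10.51 and 9.62 on the combination arrays and 10.18 and 10.32 on the vehicle arrays. Of the 9 measured T and NK cell markers, 8 lay within the range of the array's background probe sets, which reached 5.55, the exception being Nkg7 at 12.51 to 13.03. Of 11 measured neutrophil markers only Ly6g lay there, at 4.51 to 5.10 over the 4 arrays. Some neutrophil genes differed more by replicate number than by treatment. Camp, a late granule gene, was at 12.80 and 8.41 on the combination arrays and 13.51 and 7.63 on the vehicle arrays, with number 1 the higher in each group. Ltf had the same pattern, at 10.22 and 6.04 on the combination arrays and 10.38 and 5.60 on the vehicle arrays. This pair was singled out after its values were seen. In all, 6 of the 11 markers were higher on number 1 in both groups and 3, Elane, Mpo and Prtn3, were higher on number 2. Each measured stem cell gene is therefore given array by array below. Some genes of other lists are given only as a difference.

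Many stem cell genes with a clear signal were lower on the combination arrays. Procr, Mecom, Prdm16, Fgd5 and Tek, genes of the rare primitive stem cells, lay in the background range with differences of -0.05 to 0.19. Not all such genes were alike. Zfp521, with both group means in that range, differed by -0.56. Slamf1, Hlf and Ctnnal1, with both group means above it, differed by -0.84, -0.03 and 0.03. No stem cell gene passed limma's test with adjustment over all 65956 features, where the smallest adjusted p among the 34 was 0.67 and 0.00303% of all features passed. With limma's unadjusted p under 0.05, 9 of the 34 were lower and 1 was higher, against 2.65% and 2.66% of all 30142 genes. Both combination arrays lay below both vehicle arrays for 14 of the 34 genes and above them for 1, against 15.4% and 19.7% of all genes. The median difference of the 34 was -0.32, against 0.01 for all genes. Without vehicle array 2 the count of 9 became 4, and without combination array 1 it also became 4. In bulk RNA, fewer cells of a kind and less RNA per cell cannot be told apart.

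**Figure D1:**
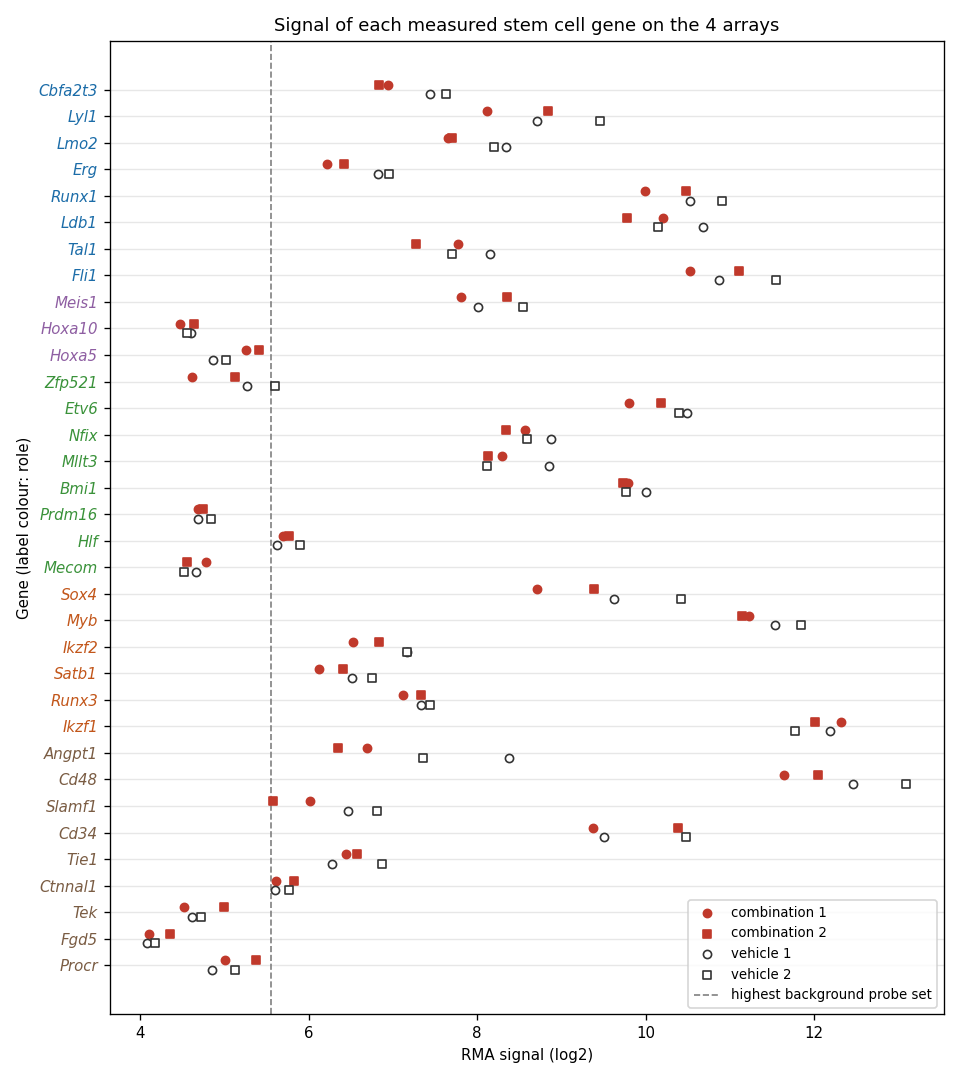
RMA signal (log2, horizontal axis) of the 34 measured stem cell genes, with red marks for the combination arrays, open marks for the vehicle arrays, circles for number 1 and squares for number 2. The dashed line is the highest background probe set, 5.55, and the red marks of Cbfa2t3, Lmo2, Erg, Myb, Cd48 and Slamf1 all lie left of the open marks.

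Signal strength split the genes. For 8 of them, Zfp521, Prdm16, Hoxa10, Mecom, Tek, Fgd5, Procr and Hoxa5, the mean over the 4 arrays lay within the background range, and their folds are compressed. The other 26 had both group means above it, and 24 of these 26 had a negative difference, against 60.3% of the 12615 genes whose mean lay above it. With limma's unadjusted p under 0.05, 9 of these 26 were lower and 0 higher, against 5.14% and 3.53% of those 12615 genes. Both combination arrays lay below both vehicle arrays for 13 of the 26 and above them for 0, against 22.8% and 12.7% of those genes. The median difference of the 26 was -0.41, with quartiles of -0.58 and -0.17, and that of the 12615 genes was -0.05, with quartiles of -0.21 and 0.10. These shares describe a list chosen with results of these data known.

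**Figure D2:**
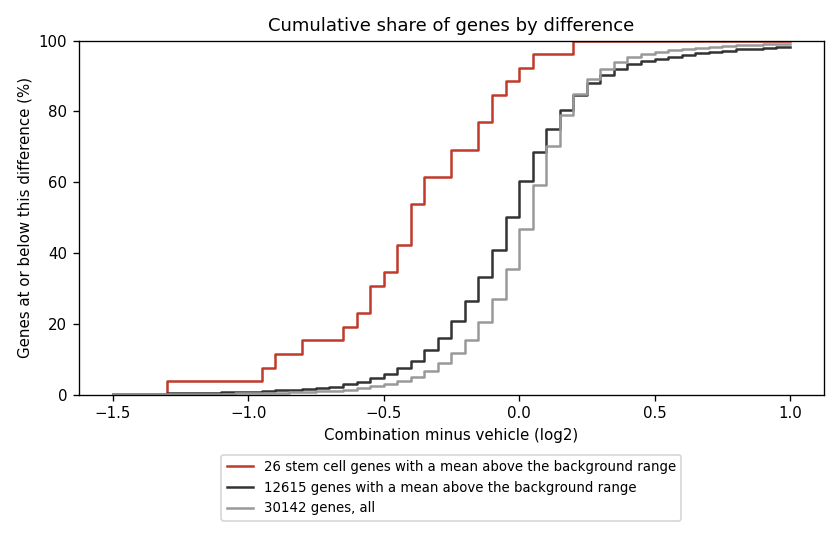
Share of genes (%, vertical axis) at or below each log2 difference (horizontal axis) for the 26 stem cell genes with a mean above the background range (red), the 12615 genes above it (black) and all 30142 genes (grey). The red line lies left of the others, with medians of -0.41, -0.05 and 0.01.

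All 8 genes of the list that belong to the TAL1, LMO2 and RUNX1 network, cofactors included, had a negative difference. The median was -0.53 and the range -0.65 to -0.39. For 3 of the 8 limma's unadjusted p was under 0.05. At that p 2.65% of all genes were lower, and 5.14% of those with a mean above the background range. Of partners outside the list, Gata2 differed by -0.11 and Cbfb by 0.05, and the 22 measured partners had a median of -0.06. They ranged from -1.01 to 0.75, with 12 negative and 10 positive. Of these 22, 6 had a mean within the background range, against 0 of the 8, so the 2 medians are not of genes alike in signal. Cbfa2t3 encodes ETO2, a corepressor that joins TAL1 and LDB1 complexes. It was at 6.95 and 6.83 on the combination arrays and 7.44 and 7.63 on the vehicle arrays, with no overlap. The difference was -0.65 (SE 0.14, 1.57-fold), with an unadjusted p of 0.00773 and an adjusted p of 0.67 in limma. Of the 34 genes it alone kept an unadjusted p under 0.05 whichever array was left out.

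Lmo2, the bridging protein of the complex, was at 7.65 and 7.71 on the combination arrays and 8.34 and 8.20 on the vehicle arrays. Its arrays differed little within a group, and the groups did not overlap (difference -0.59, SE 0.13, limma adjusted p = 0.69). Erg, an ETS factor needed to maintain stem cells, was at 6.21 and 6.43 on the combination arrays and 6.82 and 6.95 on the vehicle arrays. It too separated the groups (-0.57, SE 0.15, limma adjusted p = 0.79). Runx1, the DNA-binding subunit of core binding factor, was at 9.99 and 10.47 on the combination arrays and 10.53 and 10.91 on the vehicle arrays. Its groups also did not overlap, by a narrow margin, and the difference was -0.49 (SE 0.24, limma unadjusted p = 0.10).

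For the other 4 factors the arrays of the groups overlapped. Lyl1, the close relative of Tal1, was at 8.12 and 8.84 on the combination arrays and 8.71 and 9.46 on the vehicle arrays, so array number 2 was the higher in each group by 0.73 and 0.75. Fli1, an ETS factor, was at 10.52 and 11.11 on the combination arrays and 10.87 and 11.55 on the vehicle arrays, again higher on number 2. Tal1 itself ran the other way, at 7.78 and 7.27 on the combination arrays and 8.16 and 7.70 on the vehicle arrays. Ldb1, which dimerises to join distant complexes, matched Tal1 in this, at 10.20 and 9.78 on the combination arrays and 10.68 and 10.15 on the vehicle arrays. The differences of Lyl1, Fli1, Tal1 and Ldb1 were -0.60, -0.39, -0.40 and -0.42, with unadjusted limma p of 0.17, 0.28, 0.18 and 0.16.

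**Figure D3:**
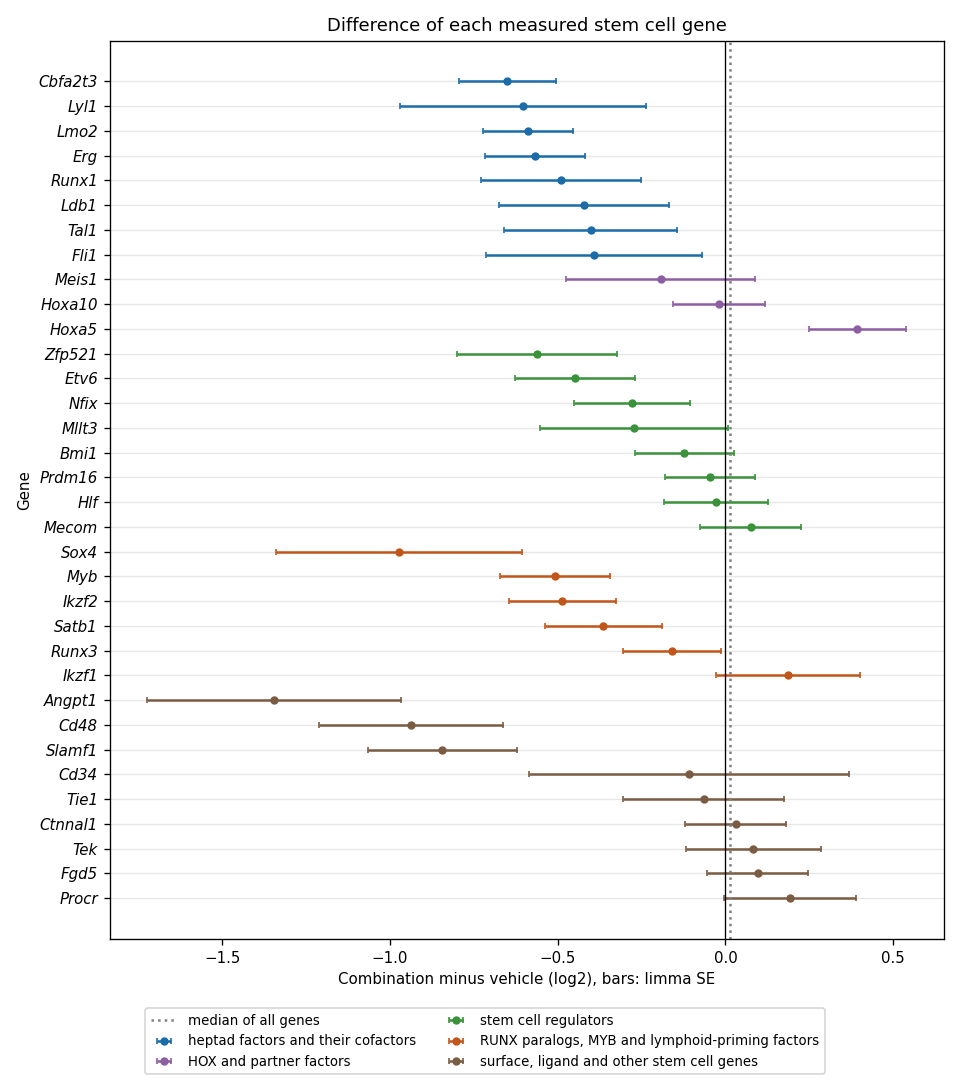
Log2 difference, combination minus vehicle (horizontal axis), of each measured stem cell gene, with bars for limma's standard error and colours for the role of the gene. All 8 listed factors of the TAL1, LMO2 and RUNX1 network lie left of 0, and the dotted line is the median of all genes, 0.01.

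The promoters of genes in this network are shown because the drugs act through DNA-binding proteins that read short motifs. RefSeq (GRCm38.p6) windows from 250 bases before to 50 bases after a start site were held for 29 of the 34 genes. Capitals mark, on either strand, the cAMP response element TGACGTCA or its core TGACG, the ETS motif GGAAG, the GATA motif AGATAA and the RUNX motif TGTGGT. Where a gene has several windows, the one with the most matches is printed. The first 3 windows belong to genes whose combination arrays both lay below the vehicle arrays, Cbfa2t3 (chr8:122699060-122699359, minus strand), Erg (chr16:95459299-95459598, minus strand) and Runx1 (chr16:92826025-92826324, minus strand). The last is Hlf (chr11:90390868-90391167, minus strand), a stem cell gene whose level differed by -0.03.
Cbfa2t3: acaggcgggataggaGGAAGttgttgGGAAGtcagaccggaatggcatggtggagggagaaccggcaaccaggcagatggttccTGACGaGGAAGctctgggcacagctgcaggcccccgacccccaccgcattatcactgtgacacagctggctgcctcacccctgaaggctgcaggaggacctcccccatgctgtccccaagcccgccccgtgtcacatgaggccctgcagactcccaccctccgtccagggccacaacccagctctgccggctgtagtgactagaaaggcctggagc
Erg: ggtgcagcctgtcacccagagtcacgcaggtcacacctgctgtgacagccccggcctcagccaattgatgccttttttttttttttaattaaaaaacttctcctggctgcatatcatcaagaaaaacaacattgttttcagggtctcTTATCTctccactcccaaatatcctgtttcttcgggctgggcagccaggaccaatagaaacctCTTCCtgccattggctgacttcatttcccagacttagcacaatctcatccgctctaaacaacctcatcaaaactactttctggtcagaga
Runx1: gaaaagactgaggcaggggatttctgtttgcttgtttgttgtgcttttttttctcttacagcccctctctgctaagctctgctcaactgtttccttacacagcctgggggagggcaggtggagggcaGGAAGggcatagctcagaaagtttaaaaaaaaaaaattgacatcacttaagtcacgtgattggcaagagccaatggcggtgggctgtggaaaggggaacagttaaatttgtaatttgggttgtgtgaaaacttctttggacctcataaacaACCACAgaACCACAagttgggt
Hlf: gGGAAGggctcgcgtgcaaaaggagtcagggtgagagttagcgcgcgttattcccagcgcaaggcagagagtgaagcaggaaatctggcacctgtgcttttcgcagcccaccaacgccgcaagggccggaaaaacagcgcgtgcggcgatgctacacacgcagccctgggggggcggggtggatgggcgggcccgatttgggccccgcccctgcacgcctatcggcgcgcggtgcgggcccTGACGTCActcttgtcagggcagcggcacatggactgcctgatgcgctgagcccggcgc

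Among the 29 genes only Hlf held the full cAMP response element in a window, against 2.03% of 27025 genes. Because that element reads alike on both strands, it holds the core TGACG on each. The core was found for 8 of the 29 genes, against 23.0% of genes. These were Cbfa2t3, Etv6, Tal1, Ldb1, Hoxa5, Procr, Ikzf1 and Hlf. A glucocorticoid response element, searched as GNACA and TGTNC with 3 bases between them, was found for 0 of the 29, against 0.537% of genes. The ETS motif was found for 24 of 29 (73.9% of genes), the E-box CANNTG, not marked above, for 23 (74.99%), the RUNX motif for 5 (18.9%) and the GATA motif for 4 (12.7%). A gene with several windows had more chances of a match, and a match of letters is not a bound site.

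Among the regulators of self-renewal, Etv6, Nfix, Mllt3 and Bmi1, which had a clear signal, had negative differences, and the dim ones lay close to 0 apart from Zfp521. Of 8 measured genes, 7 had a negative difference, none had an unadjusted limma p under 0.05, and the median was -0.20. Etv6, an ETS repressor required by adult stem cells, was at 9.80 and 10.18 on the combination arrays and 10.49 and 10.39 on the vehicle arrays. The groups did not overlap (-0.45, SE 0.18, limma unadjusted p = 0.058). Nfix, a nuclear factor I protein that aids stem cell survival, was at 8.56 and 8.35 on the combination arrays and 8.88 and 8.59 on the vehicle arrays, a narrow separation (-0.28, SE 0.17). Mllt3, a reader of acetylated histones that sustains self-renewal in human cells, was at 8.30 and 8.13 on the combination arrays and 8.86 and 8.11 on the vehicle arrays. Only vehicle array 1 stood high there, and without it the difference was 0.10. Bmi1, a Polycomb protein that represses the Cdkn2a locus, was at 9.79 and 9.73 on the combination arrays and 10.00 and 9.77 on the vehicle arrays, close together throughout.

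The regulators most restricted to stem cells gave little signal. Mecom, which encodes EVI1, was at 4.78 and 4.56 on the combination arrays and 4.67 and 4.52 on the vehicle arrays. Prdm16, its relative, was at 4.69 and 4.75 on the combination arrays and 4.69 and 4.84 on the vehicle arrays. Both were within the background range on all 4 arrays. Hlf, a PAR bZIP factor, stood just above that range at 5.69 and 5.77 on the combination arrays and 5.63 and 5.89 on the vehicle arrays. Zfp521, a zinc finger protein of immature progenitors, was at 4.62 and 5.13 on the combination arrays and 5.27 and 5.61 on the vehicle arrays. It separated the groups (-0.56, SE 0.24, limma unadjusted p = 0.070), although only vehicle array 2 was above the background range.

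The measured HOX genes were dim and did not share the negative differences. Hoxa5 was the only one of the 34 genes higher at an unadjusted p under 0.05. It was at 5.26 and 5.41 on the combination arrays and 4.86 and 5.02 on the vehicle arrays, all within the background range, with a difference of 0.39 (SE 0.14, limma unadjusted p = 0.0455, adjusted p = 0.89). With any 1 array left out, the unadjusted p was above 0.05. Hoxa10 was at 4.47 and 4.64 on the combination arrays and 4.60 and 4.56 on the vehicle arrays. Meis1, the TALE partner of HOXA9, had a clear signal, at 7.81 and 8.35 on the combination arrays and 8.004 and 8.55 on the vehicle arrays. For Meis1 the gap between numbers was 0.54 in each group, against a group difference of -0.19 (SE 0.28). Of 15 other measured HOXA and HOXB genes, 14 had a mean within the background range, none had an unadjusted limma p under 0.05, and the median difference was 0.05.

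Among the RUNX paralog, MYB and lymphoid-priming factors, 5 of 6 measured genes had a negative difference and 3 had an unadjusted limma p under 0.05. Those 3 were lower, as were 2.65% of all genes at that p. Sox4, an HMG-box factor of early B cells and of leukemia, had the largest difference of a transcription factor among the 34. It was at 8.71 and 9.39 on the combination arrays and 9.63 and 10.42 on the vehicle arrays (-0.97, SE 0.37, limma unadjusted p = 0.0492, adjusted p = 0.89). The groups did not overlap, and number 2 was the higher in each. Myb, which drives progenitor proliferation, was at 11.22 and 11.15 on the combination arrays and 11.53 and 11.85 on the vehicle arrays (-0.51, SE 0.16, limma unadjusted p = 0.0301, adjusted p = 0.84). Ikzf2 (Helios) was at 6.53 and 6.83 on the combination arrays and 7.17 and 7.16 on the vehicle arrays (-0.49, SE 0.16, limma unadjusted p = 0.032, adjusted p = 0.85).

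Satb1, a chromatin organiser of lymphoid progenitors, also separated the groups, at 6.12 and 6.41 on the combination arrays and 6.52 and 6.75 on the vehicle arrays (-0.36, SE 0.17). Runx3, a paralog of Runx1, overlapped at 7.12 and 7.33 on the combination arrays and 7.33 and 7.45 on the vehicle arrays. Ikzf1 (Ikaros), the best known lymphoid factor of the group, had a positive difference of 0.19 (SE 0.21). It was at 12.32 and 12.01 on the combination arrays and 12.19 and 11.77 on the vehicle arrays, which overlap, and its number 1 arrays were the higher, unlike those of Sox4, Satb1 and Runx3.

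Among 9 measured surface and ligand genes, 3 had an unadjusted limma p under 0.05, all lower, against 2.65% of all genes. The median difference was -0.07. Angpt1 had the largest difference of the 34 genes. It encodes angiopoietin-1, the ligand of the TIE2 receptor (Tek), and was at 6.70 and 6.35 on the combination arrays and 8.38 and 7.36 on the vehicle arrays. The groups did not overlap, the vehicle arrays lay 1.02 apart, and the difference was -1.35 (SE 0.38, 2.54-fold, limma unadjusted p = 0.0187, adjusted p = 0.80). It stayed between -1.86 and -0.83 with any 1 array left out. The receptor gene Tek was within the background range, at 4.52 and 4.99 on the combination arrays and 4.62 and 4.73 on the vehicle arrays. Tie1, the related receptor, was at 6.44 and 6.58 on the combination arrays and 6.27 and 6.88 on the vehicle arrays, where the combination values lie between the vehicle values. Of 8 measured markers of endothelial cells, which also carry TIE receptors, 6 had a mean within the background range. The others were Flt1, which differed by -1.01 without overlap (SE 0.39, limma unadjusted p = 0.052), and Pecam1, by 0.23 with overlap (SE 0.32).

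Slamf1 and Cd48, SLAM family receptors used in opposite ways to sort stem cells, were both lower on the combination arrays. Slamf1, present on stem cells, was at 6.02 and 5.58 on the combination arrays and 6.47 and 6.81 on the vehicle arrays (-0.84, SE 0.22, limma unadjusted p = 0.0149, adjusted p = 0.79). Cd48, absent from most stem cells and present on progenitors, was at 11.64 and 12.04 on the combination arrays and 12.47 and 13.09 on the vehicle arrays (-0.94, SE 0.27, limma unadjusted p = 0.0216, adjusted p = 0.81). Neither gene's groups overlapped. The start sites lie 85.1 kb apart on chromosome 1, and the windows around them are printed for this pair of neighbours, with capitals as above: Cd48 (chr1:171681742-171682041, plus strand) and Slamf1 (chr1:171766882-171767181, plus strand).
Cd48: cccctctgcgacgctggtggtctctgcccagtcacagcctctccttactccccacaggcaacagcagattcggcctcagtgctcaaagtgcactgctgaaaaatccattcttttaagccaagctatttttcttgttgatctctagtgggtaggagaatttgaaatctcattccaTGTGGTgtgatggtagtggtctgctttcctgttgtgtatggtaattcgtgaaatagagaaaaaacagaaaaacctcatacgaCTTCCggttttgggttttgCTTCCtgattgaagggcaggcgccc
Slamf1: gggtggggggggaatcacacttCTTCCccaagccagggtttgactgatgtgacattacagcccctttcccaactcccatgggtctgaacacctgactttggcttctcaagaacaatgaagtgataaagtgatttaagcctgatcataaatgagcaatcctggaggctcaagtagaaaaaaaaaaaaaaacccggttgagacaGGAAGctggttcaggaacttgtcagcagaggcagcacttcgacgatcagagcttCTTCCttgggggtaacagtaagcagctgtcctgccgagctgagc

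Neither window held TGACG or the glucocorticoid element. The ETS motif occurred 2 times in that of Cd48 and 3 times in that of Slamf1, and the RUNX motif 1 time in that of Cd48.

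Other surface genes did not separate the groups. Cd34, a sialomucin of progenitors, was at 9.38 and 10.38 on the combination arrays and 9.50 and 10.48 on the vehicle arrays. The numbers differed by 1.00 and 0.98 within the groups, and the groups by only -0.11 (SE 0.48). Procr was at 5.002 and 5.37 on the combination arrays and 4.85 and 5.13 on the vehicle arrays, all within the background range. Fgd5, a marker of stem cells, was at 4.11 and 4.35 on the combination arrays and 4.09 and 4.17 on the vehicle arrays. Ctnnal1 (alpha-catulin), another marker of rare stem cells, was at 5.62 and 5.82 on the combination arrays and 5.61 and 5.77 on the vehicle arrays.

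Arrays of the same treatment often lay far apart. For 20 of the 34 genes the larger of the gaps within a group exceeded the difference between the groups. The gaps had the same sign in both groups for 27 genes, with 19 higher on number 2 and 8 higher on number 1. The shares of all genes with such gaps were not counted, so these counts are not read as particular to the stem cell genes. Over all features the gaps correlated between the groups with r = 0.33. Cd34, Lyl1, Sox4, Fli1 and Meis1 were over 0.5 higher on number 2 in each group. Tal1, Ldb1, Ikzf1 and Nfix were higher on number 1 in each group. Erythroid markers were divided, with 5 of 7 higher on number 1 in both groups and 2, Alas2 and Slc4a1, higher on number 2. Klf1 was at 10.86 and 10.08 on the combination arrays and 11.53 and 9.96 on the vehicle arrays. Alas2 was at 7.62 and 9.42 on the combination arrays and 8.16 and 9.49 on the vehicle arrays. The part of cell makeup in these gaps was not tested.

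**Figure D4:**
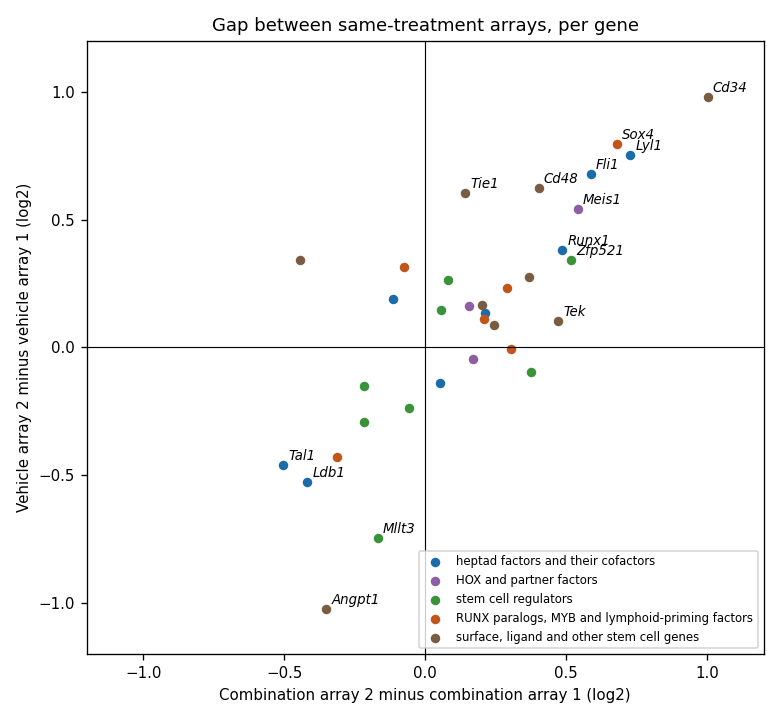
Gap between the arrays numbered 2 and 1 (log2) within the combination group (horizontal axis) and within the vehicle group (vertical axis) for each measured stem cell gene, coloured by role. Cd34 lies at 1.00 and 0.98, and 27 of the 34 genes have gaps of the same sign in both groups.

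Markers of other cells were read beside these differences. At an unadjusted limma p under 0.05, 2.65% of all genes were lower and 2.66% higher. Among genes with a mean above the background range the shares were 5.14% and 3.53%. Of 9 measured monocyte and macrophage markers, 5 were lower and 1 higher at an unadjusted limma p under 0.05. Their mean log2 signal was 7.80 and 8.07 on the combination arrays and 8.32 and 8.89 on the vehicle arrays, which do not overlap. The chemokine receptor gene Ccr2 differed by -1.77, the mannose receptor gene Mrc1 by -2.19 and Adgre1 (F4/80) by -0.56. The marker that was higher, the complement gene C1qb, was at 5.72 and 5.65 on the combination arrays and 4.70 and 4.51 on the vehicle arrays, of which only the vehicle values lay in the background range. Erythroid markers averaged 10.13 and 10.14 on the combination arrays and 10.71 and 10.46 on the vehicle arrays. All 7 had a negative difference, with a median of -0.31, and 1, the transferrin receptor gene Tfrc, was lower at that p (-0.79). Mast cell and basophil markers averaged 8.995 and 9.16 on the combination arrays and 9.21 and 9.44 on the vehicle arrays, with 1 of 7, Ms4a2, lower at that p (-0.40). Neutrophil markers averaged 12.81 and 11.93 on the combination arrays and 12.46 and 11.09 on the vehicle arrays, with 2 of 11 higher at that p. Their median difference was only 0.03, and 5 of the 11 had a negative difference. Cxcr2, a chemokine receptor of neutrophils, was at 12.75 and 13.83 on the combination arrays and 9.06 and 8.87 on the vehicle arrays (4.32, SE 0.38, limma adjusted p = 0.20). Mmp8, a granule protease, was at 8.13 and 7.37 on the combination arrays and 6.29 and 4.34 on the vehicle arrays (2.43, SE 0.70, limma adjusted p = 0.80). Among megakaryocyte markers 0 of 6 differed at that p, among B cell markers 1 of 6 and among dendritic cell markers 1 of 5. The B cell marker was Ebf1 (-0.55), which lay within the background range on all 4 arrays. The dendritic cell marker was Ciita (-1.04), with both combination values, 5.17 and 4.98, in that range. The part of these cells in the stem cell genes' differences was not tested.

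Partners and relatives of the stem cell factors were taken from lists drawn up beside the 39 genes. A first list held 22 measured partners of the HOX, TALE, LMO2 and core binding factor complexes. At an unadjusted limma p under 0.05, 2 were lower and 1 higher, against 2.65% and 2.66% of all genes. Their median difference was -0.06, and 6 of the 22 had a mean within the background range. Gata2, which completes the network, was at 7.31 and 7.36 on the combination arrays and 7.43 and 7.47 on the vehicle arrays (-0.11, SE 0.13). Cbfb, the partner of RUNX1, was at 8.16 and 8.91 on the combination arrays and 8.26 and 8.72 on the vehicle arrays. Zfpm1, the GATA cofactor FOG1, was at 9.43 and 8.81 on the combination arrays and 10.47 and 9.71 on the vehicle arrays (-0.97, SE 0.35, limma adjusted p = 0.89). Cbfa2t2, the paralog of Cbfa2t3, was at 7.10 and 6.92 on the combination arrays and 7.49 and 7.37 on the vehicle arrays (-0.42, SE 0.14, limma adjusted p = 0.86). The ETS factor Ets2 was the gene that was higher, by 0.75 (SE 0.27), at 5.49 and 6.20 on the combination arrays and 5.01 and 5.19 on the vehicle arrays. Only combination array 2 was above the background range for Ets2.

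Of 18 measured Polycomb and MLL regulators, 2 were lower and 0 higher at an unadjusted limma p under 0.05, and the median difference was -0.20. At that p 2.65% of all genes were lower and 2.66% higher. Dot1l, a histone methyltransferase recruited by MLLT3 and its relatives, was at 7.68 and 7.56 on the combination arrays and 8.30 and 8.34 on the vehicle arrays. That is -0.70 (SE 0.13, limma unadjusted p = 0.00414, adjusted p = 0.55). Ezh1, a Polycomb methyltransferase, differed by -0.58 (SE 0.20). Kmt2a, the MLL methyltransferase that maintains HOXA expression, was at 10.02 and 10.42 on the combination arrays and 10.49 and 10.57 on the vehicle arrays, without overlap (-0.31, SE 0.18, limma unadjusted p = 0.16).

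Of 30 other measured stem and progenitor genes, 2 were lower and 2 higher at an unadjusted limma p under 0.05, with a median of -0.18. At that p 2.65% of all genes were lower and 2.66% higher. Adgrg1 (GPR56), an adhesion receptor of stem cells, was at 10.37 and 11.25 on the combination arrays and 11.87 and 12.45 on the vehicle arrays, a difference of -1.35 (SE 0.37, limma adjusted p = 0.80). Hmga2, a chromatin protein of fetal stem cells, differed by -0.47 (SE 0.13, limma adjusted p = 0.80). Both of its combination values, 5.36 and 5.48, lay within the background range. Higher were Gcnt2, by 0.62 (SE 0.16), and Txnip, a redox regulator that glucocorticoids induce, by 1.76 (SE 0.26, limma adjusted p = 0.41).

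**Figure D5:**
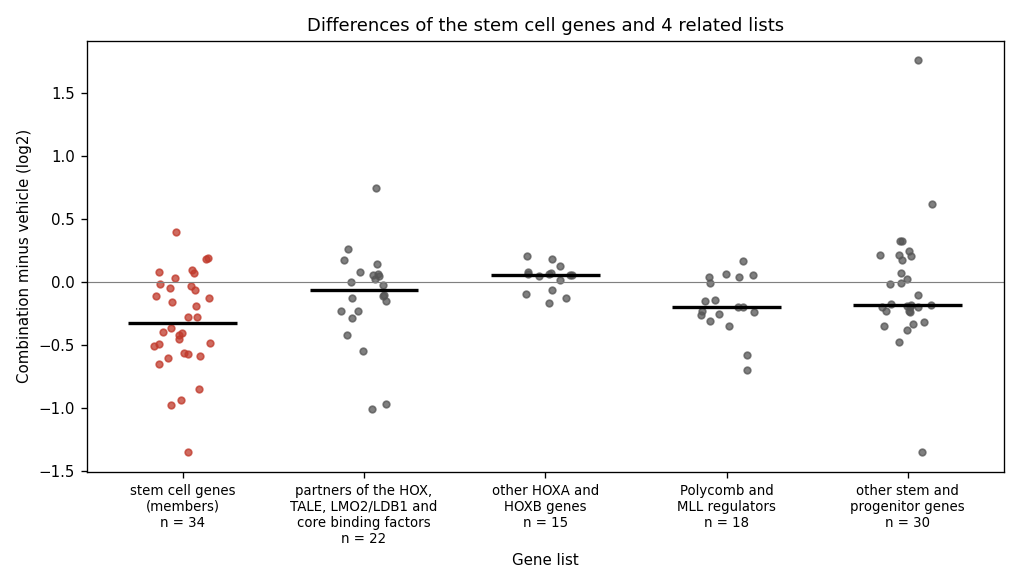
Log2 difference, combination minus vehicle (vertical axis), of each gene in the stem cell list and in 4 related lists, with a black bar at each median. The medians are -0.32 for the 34 stem cell genes, then -0.06, 0.05, -0.20 and -0.18 for the lists of 22, 15, 18 and 30 genes.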

How the data were processed

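The deposited values are log2 signals of probe sets. Per the submitters' processing notes, the authors ran RMA and the Transcriptome Analysis Console. Neither a version nor a genome build is given in the sources used here. RMA pulls arrays towards 1 distribution and compresses dim signals. Arrays carry no read depth, and 2 arrays a group limit the precision. From 72688 rows, 6732 control rows were left out. The platform annotation names 1 gene for 30604 of the remaining 65956 features, several for 2146 and none for 33206. Entrez identifiers updated symbols of the comparison lists through the RefSeq table (GRCm38.p6), and for genes with several features the one with the highest mean was kept. The test was limma's moderated test (limma 3.58.1, R 4.3.3; residual degrees of freedom 2, prior 2.59), two-sided, with group as the only term and Benjamini-Hochberg adjustment over all features. The code was checked on simulated arrays with independent noise drawn from the fit's own variances. These lack gaps by replicate number shared between the groups, so the check does not cover such gaps. SE is limma's moderated standard error. The submitters describe the duplicates as biological without saying what separates them, so p-values measure only the spread between these samples. The background range ends at the highest value of 23 background probe sets on any array.

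The members and lists were chosen with earlier results of these data known. Every measured member is named. From other lists the text names up to 4 genes with an unadjusted p under 0.05, and Kit, Gata2, Cbfb and Kmt2a in any case (other genes of that rule are not reported here). Other genes named were chosen after their values were seen. Alternatives tried were a block for the replicate number, an intensity trend, a robust prior, dim features left out, a second quantile normalization, centring, control rows kept, and each array left out.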

Additional observations from a re-analysis of the deposited data

How the results depend on the processing

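No stem cell gene passed limma's adjusted threshold of 0.05 under any alternative run, and the median difference kept its sign, between -0.38 and -0.23. As reported, 9 genes were lower and 1 higher at an unadjusted p under 0.05. The labels do not say what the replicate numbers mean. Over all features the gaps between numbers correlated between the groups (r = 0.33). With number as a replicate block, 19 features passed the adjusted threshold against 2. In that fit 15 stem cell genes were lower at an unadjusted limma p under 0.05 against 9, among them all 8 listed network factors against 3. In that block fit 4.02% of all genes and 7.93% of those above the background range were lower at this p. The count of 9 lower genes became 6 with an intensity trend and 7 after a second quantile normalization. It became 8 with a robust prior, with dim features left out or with control rows kept, and 10 after centring. With the intensity trend, limma's unadjusted p was 0.051 for Sox4, 0.054 for Myb and 0.065 for Ikzf2. The count of 1 higher gene became 0 with an intensity trend, with dim features left out, after a second quantile normalization, after centring and with control rows kept. The 2 features past the adjusted threshold became 0 under the same alternatives except centring. With 1 array left out, 0 features passed, 4 to 9 genes were lower at an unadjusted p and 0 were higher, in a fit with fewer residual degrees of freedom. The lone array of a group is then assumed to vary like the other group. Ctnnal1 turned to -0.022 after centring. With 1 array left out, the sign of 12 genes with small differences was not stable. Mllt3 lay between -0.65 and 0.10, Meis1 between -0.46 and 0.077, Cd34 between -0.61 and 0.39, Tie1 between -0.37 and 0.24, Prdm16 between -0.12 and 0.028, Hlf between -0.16 and 0.10 and Hoxa10 between -0.10 and 0.068. Ctnnal1 lay between -0.070 and 0.13, Mecom between -0.033 and 0.18, Tek between -0.15 and 0.32, Fgd5 between -0.026 and 0.22 and Ikzf1 between -0.028 and 0.40. Dim features left out removed 1 stem cell gene, Fgd5. Each stem cell gene had 1 probe set, so taking the dimmest probe set per gene could not alter a value and was not run.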

Other observations

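Further SLAM family genes lie on chromosome 1 with Slamf1 and Cd48. They were looked up after the values of that pair were seen, and 6 of them were measured. Slamf6 was at 5.30 and 5.10 on the combination arrays and 5.57 and 6.45 on the vehicle arrays, a difference of -0.81 (SE 0.32, limma unadjusted p = 0.057), with only the vehicle values above the background range. Ly9 was at 7.92 and 8.11 on the combination arrays and 8.28 and 8.48 on the vehicle arrays (-0.37, SE 0.15, limma unadjusted p = 0.068). In both genes the combination arrays lay below the vehicle arrays. Cd84 overlapped, at 9.01 and 8.75 on the combination arrays and 9.15 and 8.92 on the vehicle arrays. Slamf7, Slamf8 and Slamf9 differed by 0.01, 0.13 and -0.05, within the background range. The smallest limma adjusted p among the 8 SLAM genes was 0.79, that of Slamf1.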
